A study of Mus musculus with 22 samples.

Results

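Ildr2, Ildr1 and Lsr are the 3 genes of the angulin family, and their transcripts are described here in every library of a study of the Tol mouse. The tables list 34584 genes besides the transgene, and the 3 members were found in them by their Ensembl identifiers. Ildr2 was singled out because its level was lower in the thymus of Tol mice than in that of wild-type littermates, so that difference is given as a description and was not tested. Ildr1 and Lsr were taken because they belong to the same family. Tol mice are C57BL/6 animals heterozygous for a transgene placed next to Col1a1 in embryonic stem cells, driven by the ubiquitous CAG promoter and encoding scrambled fragments of reporter proteins. WT mice are littermates without it, and Tol and WT mice received no treatment. RNA was taken from frozen thymus (4 Tol and 4 WT libraries), cerebrum (4 and 4) and cerebellum (2 and 4), 22 libraries in all. The labels do not give the age of each animal, and they number the libraries without saying whether equal numbers in 2 organs mark 1 animal.

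Angulins are membrane proteins with an immunoglobulin-like domain outside the cell that gather where the corners of 3 epithelial cells meet. There they recruit tricellulin, the product of Marveld2, and so seal the tricellular junction. Lsr (angulin-1) is also known as the lipolysis-stimulated lipoprotein receptor and marks tricellular contacts of brain endothelium, Ildr1 (angulin-2) is required for hearing, and Ildr2 (angulin-3) has been described both as a membrane protein linked to lipid handling and as a B7-like molecule that restrains T cells. Ildr1 and Ildr2 can also enter the nucleus and bind the splicing factors Tra2a, Tra2b and Srsf1.

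On GRCm38, Ildr2 (ENSMUSG00000040612) lies at chr1:166254139-166316823 on the plus strand, with 8251 bases of annotated exon. Ildr1 (ENSMUSG00000022900) lies at chr16:36693978-36726804 on the plus strand, with 4296 bases of exon. Lsr (ENSMUSG00000001247) lies at chr7:30957770-30973464 on the minus strand, with 2172 bases of exon. An antisense gene, 5330438I03Rik, covers 11.04% of the exonic bases of Ildr2, and the antisense genes Gm4673 and Gm17077 cover 43.55% and 1.15% of those of Lsr, while Ildr1 has no overlapping gene. The libraries keep the strand, but the methods do not say whether strand was used in counting, so reads of Ildr2 and Lsr cannot be told apart with certainty from reads of their antisense partners, which were not analysed here. Of all 31-base words in the annotated transcripts, 0.167% of those of Ildr2, 0.984% of those of Ildr1 and 0% of those of Lsr also occur in another gene on the same strand.

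The 3 members have separate promoters on separate chromosomes, and these are shown because the 3 transcripts followed 3 different patterns across organs. The sequences are RefSeq's for GRCm38.p6, from 250 bases before to 50 bases after RefSeq's start of each gene, which for Lsr lies slightly upstream of the annotated start above, read 5′ to 3′ on the strand of the gene (chr1:166253889-166254188 plus, chr16:36693728-36694027 plus and chr7:30973420-30973719 minus). Capitals mark matches on either strand to CACGTG (the E-box), GGGCGG (the GC box) and CACCTG (an E-box variant). TATAAA was searched too and had no match in the 3 windows.

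Ildr2 promoter: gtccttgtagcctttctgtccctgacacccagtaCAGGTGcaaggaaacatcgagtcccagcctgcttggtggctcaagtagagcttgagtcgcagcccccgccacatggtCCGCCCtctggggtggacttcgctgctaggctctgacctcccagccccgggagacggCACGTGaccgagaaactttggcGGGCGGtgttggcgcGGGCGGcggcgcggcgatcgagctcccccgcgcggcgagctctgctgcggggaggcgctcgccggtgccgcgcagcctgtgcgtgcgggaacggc
Ildr1 promoter: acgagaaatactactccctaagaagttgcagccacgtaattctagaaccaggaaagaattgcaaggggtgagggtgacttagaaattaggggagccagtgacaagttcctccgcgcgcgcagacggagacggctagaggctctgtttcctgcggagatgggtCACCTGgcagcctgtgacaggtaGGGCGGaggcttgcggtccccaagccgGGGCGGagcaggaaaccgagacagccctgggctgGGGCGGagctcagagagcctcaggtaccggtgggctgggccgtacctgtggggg
Lsr promoter: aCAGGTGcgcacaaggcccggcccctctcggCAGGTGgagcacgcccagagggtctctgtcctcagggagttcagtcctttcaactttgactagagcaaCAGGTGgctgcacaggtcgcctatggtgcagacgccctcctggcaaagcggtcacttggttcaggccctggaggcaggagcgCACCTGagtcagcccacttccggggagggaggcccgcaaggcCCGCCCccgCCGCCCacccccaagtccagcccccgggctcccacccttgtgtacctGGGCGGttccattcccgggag

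All 3 windows held 3 matches to GGGCGG, which is found in 35.9% of the 27025 promoters of this length. Only the window of Ildr2 held CACGTG, at position -82 from the start, as 7.24% of promoters do. CACCTG, in 20% of promoters, was matched once in Ildr2 and in Ildr1 and 4 times in Lsr. TATAAA occurs in 14.2% of promoters. The window of Ildr2 was the richest of the 3 in CpG, with 32 CpG dinucleotides against 17 in Ildr1 and 16 in Lsr, and 90.8% of all promoters had fewer than Ildr2. These matches describe letters in a window and say nothing about a factor that binds there.

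Total estimated counts ranged from 16319117 to 34776973 per thymus library, from 14543698 to 23311643 per cerebrum library and from 23340005 to 27057348 per cerebellum library. Levels are given as CPM, counts brought to a common library size, scaled by the TMM method over all 22 libraries, and differences as log2 fold changes from edgeR with its standard error (SE). The Tol transcript lay between 19.5 and 25.8 CPM in Tol thymus, 148 and 174 in Tol cerebrum and 142 and 194 in Tol cerebellum, and no WT library held more than 2 counts of it. The genotype labels therefore held in every library.

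The organ labels held in all libraries but 1. Thymocyte markers summed to between 7889 and 11349 CPM in the thymi, and to 45.4 or less in every brain library. The 6 markers of cerebellar granule and Purkinje cells summed to between 2498 and 6355 CPM in 5 cerebellum libraries. In the library labelled cerebellum Tol 2 they summed to 233. The sum of 132 to 218 CPM in the 8 cerebra was mostly Calb1, at 119 to 179 there and at 92.9 in that library. In that library Gabra6, a receptor subunit of granule cells, stood at 13 CPM. It was at 329 or more in the other cerebella and 5.23 or less in the cerebra. Pcp2, a Purkinje cell gene, was at 10.7 against 114 or more in the other cerebella and 4.89 or less in the cerebra. Cbln3 (31.3) and Zic1 (59.7) also lay above every cerebrum (14.3 and 13.5 or less). Cbln1 (25.0) lay within the cerebral range (2.93 to 27.7). Tbr1, a transcription factor of cortical neurons and the most abundant forebrain marker of the cerebra, was at 1.59 CPM there, at 2.29 or less in the other cerebella and at 138 or more in every cerebrum. Bcl11b, another transcription factor of the forebrain list, was at 43.4 CPM there, above the 1.25 to 13.4 CPM of the other cerebella and below the 55.7 to 216 of the cerebra (named after its values were seen). Differences between Tol and WT cerebellum are therefore given with and without the library labelled cerebellum Tol 2. Comparisons of cerebellum within the Tol libraries alone include it as 1 of 2 cerebella. Among the WT cerebella, number 2 had the highest oligodendrocyte sum (16499 CPM, against 4953 to 6727 in the other 3; Mbp, a myelin protein, was the most abundant), and numbers 2 and 4 carried choroid plexus markers at 1302 and 4626 CPM against 15.9 and 15.5 in the others, led by Ttr (transthyretin). Astrocyte markers were led by Slc1a3, a glutamate transporter, at 723 CPM on average in cerebrum and 1298 in cerebellum. Krt14, a keratin, and Umod, a kidney gene, were at 0 in all 8 cerebra. Gabra6, Pcp2, Zic1 and Cbln1 were named after their values were seen.

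In WT mice, Ildr2 was a cerebral transcript. It stood at 220, 205, 180 and 217 CPM in the 4 cerebra, at 31.1, 23.1, 9.44 and 10.1 CPM in the 4 cerebella and at 4.07, 3.44, 2.20 and 3.82 CPM in the 4 thymi. The 3 organs did not overlap in any library, and the order was cerebrum, cerebellum, thymus. Against thymus, the cerebrum was 59-fold higher (log2 fold change 5.88, SE 0.39, edgeR adjusted p = 1.34e-08) and the cerebellum 5.23-fold higher (2.39, SE 0.36, edgeR adjusted p = 4.21e-05). Against cerebrum, the cerebellum was 11.3-fold lower (-3.50, SE 0.34, edgeR adjusted p = 4.58e-06). In these comparisons a gene was called at an edgeR adjusted p under 0.05 and a log2 fold change beyond 1 either way, and such calls were common: 30.2% of 17413 genes were called higher and 29.7% lower in cerebrum than in thymus, 29.7% higher and 27.4% lower in cerebellum than in thymus, and 8.34% higher and 10.2% lower in cerebellum than in cerebrum. The members' differences are read against these shares. The share of all genes without overlap between organs was not counted, so a lack of overlap between organs is a description for each member.

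**Figure D1:**
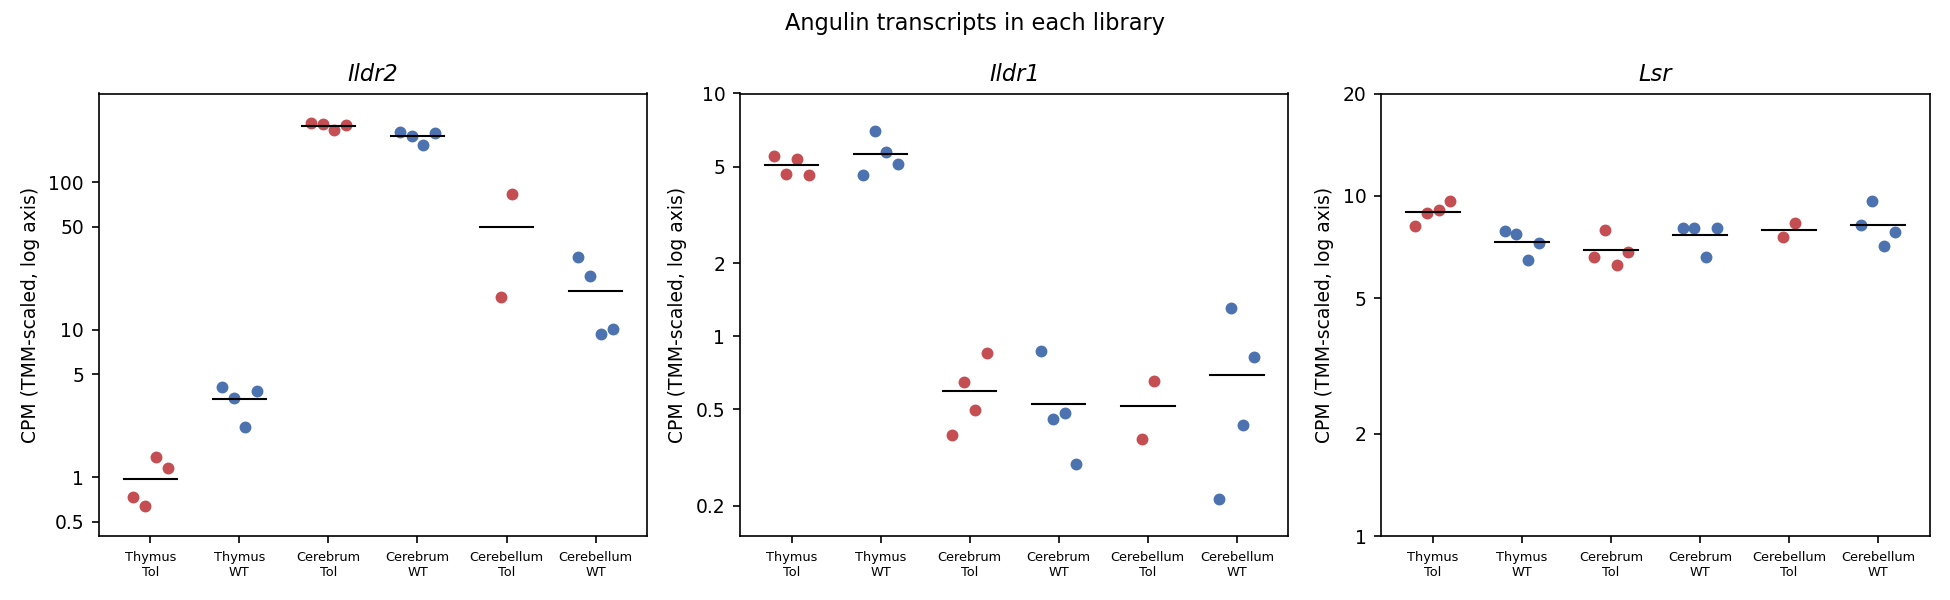
Level of Ildr2, Ildr1 and Lsr in each of the 22 libraries, in TMM-scaled CPM on log axes, 1 panel per gene; red points are Tol and blue points WT libraries, and the black lines are group means. Ildr2 was highest in cerebrum (180 to 252 CPM), Ildr1 in thymus (4.62 to 7.02 CPM), and Lsr lay between 6.27 and 9.69 CPM in all 22 libraries.

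Ildr1 was highest in thymus. In WT mice it stood at 4.63, 7.02, 5.73 and 5.13 CPM in thymus, at 0.865, 0.456, 0.482 and 0.297 CPM in cerebrum and at 0.214, 1.30, 0.429 and 0.820 CPM in cerebellum. Every thymus lay above every brain library, while cerebrum and cerebellum overlapped. The cerebrum was 10.7-fold lower than thymus (log2 fold change -3.43, SE 0.46, edgeR adjusted p = 1.41e-05) and the cerebellum 8.34-fold lower (-3.06, SE 0.44, edgeR adjusted p = 2.47e-05). Between cerebellum and cerebrum the log2 fold change was 0.37 (95% confidence interval -0.70 to 1.43, edgeR adjusted p = 0.566). The brain levels rest on 5 to 30 estimated counts per library, and the 4 cerebella spread over 0.214 to 1.30 CPM. No difference was detected, and the interval holds both lower and higher levels in cerebellum. The parts of depth and of spread between libraries in the width of the interval were not tested.

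With TMM scaling, Lsr was at much the same level in the 3 organs of WT mice. It stood at 7.86, 7.73, 6.5 and 7.25 CPM in thymus, at 8.05, 8.07, 6.63 and 8.02 CPM in cerebrum and at 8.21, 9.68, 7.10 and 7.85 CPM in cerebellum, with overlap between all pairs of organs. The log2 fold change was 0.04 (95% confidence interval -0.24 to 0.31) for cerebrum against thymus, 0.12 (-0.15 to 0.39) for cerebellum against thymus and 0.08 (-0.19 to 0.36) for cerebellum against cerebrum, with edgeR adjusted p values of 0.783, 0.380 and 0.620. Of all genes tested, 8.99%, 9.48% and 28% stayed within a log2 fold change of 0.2 either way in the 3 comparisons. Scaled by library total instead, Lsr was lower in WT cerebrum (5.62 to 7.23 CPM) than in WT thymus (7.78 to 9.45), without overlap. WT cerebellum, at 6.73 to 9.5 CPM with that scaling, overlapped both. In the Tol libraries alone the sign of both differences from thymus turned. There Lsr was at 6.27 to 7.95 CPM in cerebrum and 8.15 to 9.69 in thymus, without overlap, with a log2 fold change of -0.39 whose edgeR adjusted p was 0.0138 but whose size was under the limit of 1, and of -0.20 for cerebellum against thymus (edgeR adjusted p = 0.241).

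Set beside each other per kilobase of exon, the leading angulin transcript changed with the organ. In WT cerebrum Ildr2 led at 24.9 ± 2.23 CPM per kb (SD, n = 4), followed by Lsr at 3.54 ± 0.33 and Ildr1 at 0.122 ± 0.056, and these ranges did not overlap. In WT thymus the order was Lsr at 3.38 ± 0.28, Ildr1 at 1.31 ± 0.24 and Ildr2 at 0.410 ± 0.101 CPM per kb (SD, n = 4), again without overlap. In WT cerebellum Lsr was at 3.78 ± 0.50 and Ildr2 at 2.23 ± 1.28 CPM per kb (SD, n = 4), and the ranges of these neighbours overlapped (3.27 to 4.46 and 1.14 to 3.77), with Ildr1 lowest at 0.161 ± 0.111. Ildr2 thus made up 87.2% of the family's CPM per kb in WT cerebrum, 34.1% in WT cerebellum and 8.0% in WT thymus (means over 4 libraries). The sum of the 3 was 28.6 ± 2.55 CPM per kb in WT cerebrum, 6.17 ± 1.64 in WT cerebellum and 5.10 ± 0.42 in WT thymus (SD, n = 4). Annotated exon is an approximate measure of length, since the transcript in use is not known.

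**Figure D2:**
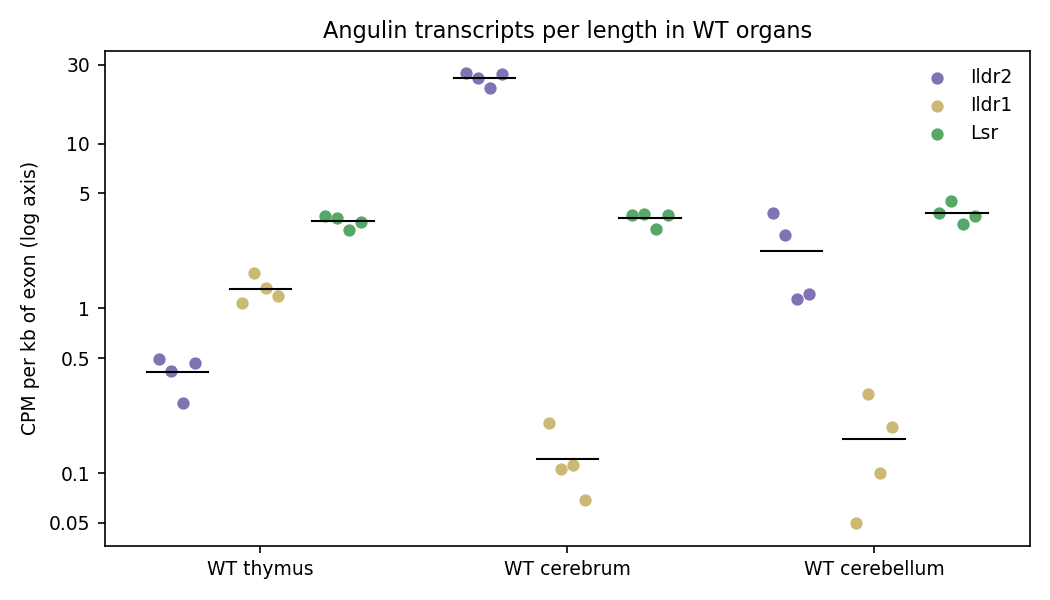
Level of the 3 members per kilobase of annotated exon in WT thymus, cerebrum and cerebellum (log axis, CPM per kb); points are the 4 libraries of each organ and black lines their means. With TMM scaling, Lsr stayed near the same level in the 3 organs. Ildr2 rose above Lsr in cerebrum (24.9 against 3.54 CPM per kb), and Ildr1 lay above Ildr2 in thymus (1.31 against 0.410).

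In thymus, the libraries by which Ildr2 was chosen showed it at 0.732, 0.637, 1.37 and 1.15 CPM in the 4 Tol mice and at 4.07, 3.44, 2.20 and 3.82 CPM in the 4 WT mice. Every Tol library lay below every WT library. The log2 fold change was -1.80 (SE 0.27), a level 3.47-fold lower in Tol, and it stayed between -2.01 and -1.64 when each library was left out in turn. The values rest on 14 to 34 estimated counts in Tol and 43 to 126 in WT thymus. At an edgeR adjusted p under 0.05, 0.0985% of the 16248 genes tested in thymus were called (16 genes, 9 higher and 7 lower in Tol), and 10.6% had no overlap between the genotypes. The count of called genes went from 0 (without Tol 2, Tol 4, WT 1, WT 2 or WT 3) to 2978 (without Tol 1) as single libraries were left out, and it was 1267 with DESeq2. Since Ildr2 was chosen on this contrast, nothing is read from it about Ildr2.

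Neither Ildr1 nor Lsr passed the test in thymus. Ildr1 stood at 5.55, 4.68, 5.37 and 4.62 CPM in Tol and 4.63, 7.02, 5.73 and 5.13 CPM in WT thymus, with overlapping groups (log2 fold change -0.14, SE 0.14, 95% confidence interval -0.45 to 0.18, edgeR adjusted p = 0.582). Lsr stood at 8.15, 8.91, 9.12 and 9.69 CPM in Tol against 7.86, 7.73, 6.5 and 7.25 CPM in WT, without overlap, as for 10.6% of all genes. Its log2 fold change was 0.30 (SE 0.10, 95% confidence interval 0.07 to 0.52), which did not pass the test over all genes (edgeR adjusted p = 0.124). It passed only without the library Tol 1 (0.37, edgeR adjusted p = 0.0306), where 2978 genes passed. Per kilobase, the share of Lsr in the family was 76.1% ± 2.58 in Tol and 66.3% ± 2.67 in WT thymus (SD, n = 4), and that of Ildr2 was 2.15% ± 0.69 and 8.0% ± 1.74. Both shares are taken of a sum that holds Ildr2, so both include the difference by which Ildr2 was chosen and are a description.

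Fibroblast markers had lower means in Tol than in WT thymus, as Ildr2 had, but none passed the test. The 6 fibroblast markers (Pdgfra, Col1a1, Col1a2, Col3a1, Dcn, Lum) summed to 205, 178, 263 and 256 CPM in Tol and 325, 395, 237 and 386 CPM in WT thymus, with overlap through WT 3, the WT thymus that was also lowest in Ildr2. All 6 markers were present in thymus, and Dcn, a matrix proteoglycan, was the most abundant at 96.7 CPM on average. Their median log2 fold change was -0.54 beside 0.01 over all genes, and 0 of the 6 passed the test (5 had an unadjusted p under 0.05, as had 24.4% of all genes), from Lum at -0.15 (edgeR adjusted p = 0.531) to Col1a2 at -0.68 (edgeR adjusted p = 0.0832). Col1a1, at -0.57 (edgeR adjusted p = 0.110), is the gene beside which the transgene was placed, and its mean was 13.3 CPM in Tol and 7.05 in WT cerebrum, where no gene was called. In cerebellum it stood at 23.7 CPM in Tol 1, at 70.4 in the library labelled cerebellum Tol 2 and between 12.8 and 16.8 in WT, with a log2 fold change of 0.63 without that library (edgeR adjusted p = 0.979). Per 100 CPM of fibroblast markers, Ildr2 was at 0.357, 0.359, 0.523 and 0.450 in Tol and 1.25, 0.871, 0.927 and 0.991 in WT thymus, a ratio that contains the values by which Ildr2 was chosen and is a description. In whole tissue, fewer cells of a type and less RNA per cell cannot be told apart, and the part of the fibroblast markers in the level of Ildr2 was not tested.

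**Figure D3:**
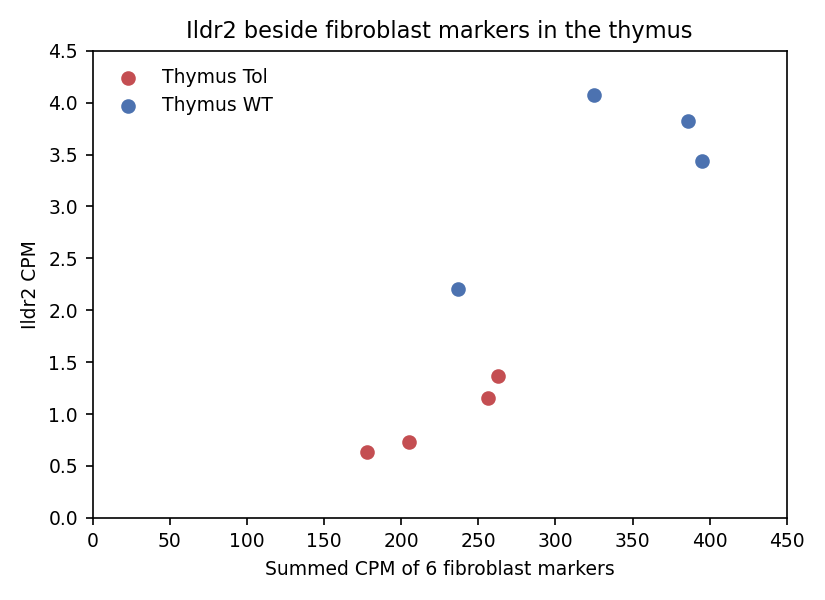
Ildr2 (CPM) against the summed CPM of 6 fibroblast markers in the 8 thymus libraries, Tol in red and WT in blue. All Tol libraries lie at 1.37 CPM of Ildr2 or less and all WT libraries at 2.20 or more, while the marker sums overlap (178 to 263 in Tol, 237 to 395 in WT).

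The other cell types of the thymus are given by their marker lists, and no marker of them passed the test. Adipocyte markers had a median log2 fold change of -0.68 over the 4 of 6 tested (0 had an unadjusted p under 0.05), with Adipoq, the adiponectin gene, at 5.57 CPM on average in Tol and 8.89 in WT thymus (named after its values were seen). Fabp4, the most abundant of them, was at 41.2 and 38.2 CPM, and the summed level overlapped, from 21.3 to 86.5 CPM in Tol and 34.3 to 95.9 in WT. B cell markers had a median of -0.27 (3 of 6 with an unadjusted p under 0.05, beside 24.4% of all genes). They were led by Cd79b, a subunit of the B cell receptor, and summed to between 60.6 and 66.8 CPM in Tol and 62.2 and 88.2 in WT. The part of either in the level of Ildr2 was not tested. Thymic epithelial markers, led by Prss16, a protease of the cortical epithelium, summed to between 1718 and 1891 CPM in Tol and 1663 and 1837 in WT thymus. Endothelial markers, led by Pecam1, summed to between 160 and 170 in Tol and 161 and 173 CPM in WT thymus. Thymocyte markers summed to between 7889 and 10014 CPM in Tol and 9644 and 11349 in WT. Per 100 CPM of epithelial markers, Lsr was at 0.474, 0.471, 0.525 and 0.536 in Tol and 0.472, 0.447, 0.365 and 0.395 in WT thymus, so that the groups met at their edges.

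In cerebrum, where Ildr2 is most abundant, the Tol values lay above the WT values, but the difference did not pass the test. The Tol libraries stood at 252, 247, 225 and 243 CPM and the WT libraries at 220, 205, 180 and 217 CPM, without overlap. The log2 fold change was 0.24 (SE 0.08, 95% confidence interval 0.06 to 0.41), 1.18-fold (edgeR adjusted p = 0.380 over all genes). No overlap between genotypes was found for 6.42% of the 15596 genes tested in cerebrum, and edgeR called 0 of them (0%), with 1506 at an unadjusted p under 0.05 and 184 called by DESeq2, which gave Ildr2 an adjusted p of 0.203. Lsr stood at 6.62, 7.95, 6.27 and 6.83 CPM in Tol and 8.05, 8.07, 6.63 and 8.02 CPM in WT cerebrum, with overlapping groups (log2 fold change -0.15, SE 0.12, edgeR adjusted p = 0.725). Ildr1, at 0.390, 0.645, 0.494 and 0.854 CPM in Tol cerebrum against the WT values above, had 5 to 16 estimated counts per library and fell under the filter on low counts. Neuron markers, led by Snap25, a synaptic vesicle fusion protein, summed to between 9490 and 11539 CPM in Tol and 8347 and 10396 in WT cerebrum. Per 100 CPM of these markers, Ildr2 was at 2.54, 2.14, 2.30 and 2.56 in Tol and 2.36, 1.97, 1.88 and 2.60 in WT cerebrum, where the groups overlapped.

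In cerebellum, the level of Ildr2 differed more between libraries of 1 genotype than between genotypes. The 2 Tol libraries stood at 16.7 and 82.9 CPM, and the 4 WT libraries ranged from 9.44 to 31.1 CPM. The higher Tol value belongs to the library labelled cerebellum Tol 2, which lacks most of the cerebellar markers. With both Tol libraries the log2 fold change was 1.46 (SE 0.73, 95% confidence interval -0.32 to 3.25, edgeR adjusted p = 0.957), and without the library labelled cerebellum Tol 2 it was -0.16 (edgeR adjusted p = 0.987), from a fit in which the lone Tol sample is assumed to vary like the WT group. edgeR called 0 of 16662 genes in cerebellum (0%), with 527 at an unadjusted p under 0.05 and 10 called by DESeq2, and 10.5% had no overlap. Ildr1 stood at 0.377 and 0.653 CPM in Tol cerebellum (log2 fold change -0.41, SE 0.76, edgeR adjusted p = 0.958, and -0.89 without the library labelled cerebellum Tol 2). Lsr stood at 7.59 and 8.33 CPM (-0.04, SE 0.18, 95% confidence interval -0.48 to 0.41, edgeR adjusted p = 0.981, and -0.14 without that library). Both lay within the WT range. The fibroblast markers summed to 152 and 314 CPM in the 2 Tol cerebella, the higher value again in the library labelled cerebellum Tol 2, and to between 104 and 146 CPM in WT, and their part in the level of Ildr2 was not tested.

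**Figure D4:**
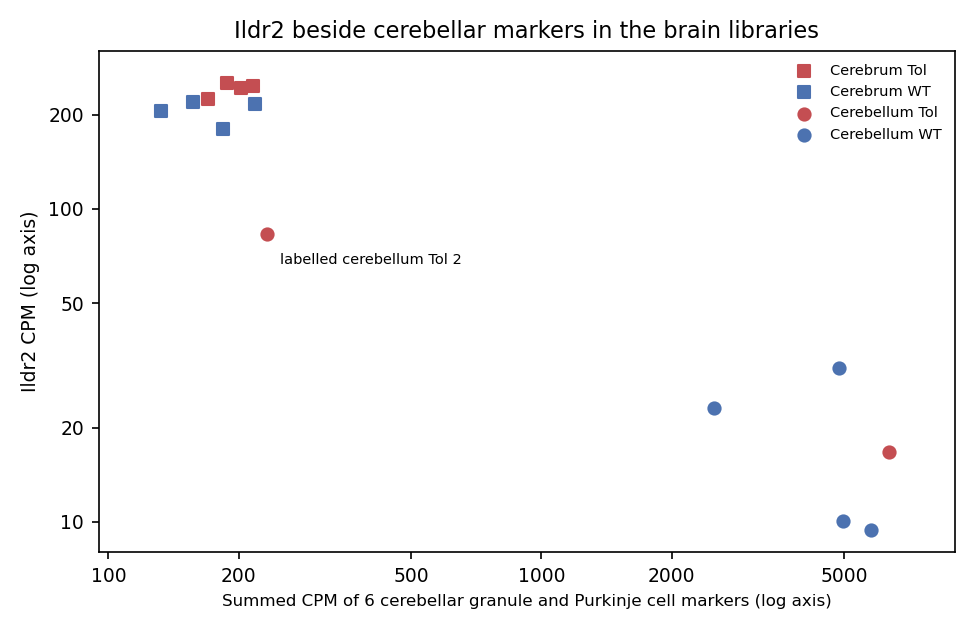
Ildr2 (CPM, log axis) against the summed CPM of 6 markers of cerebellar granule and Purkinje cells (log axis) in the 14 brain libraries; squares are cerebra, circles cerebella, red Tol and blue WT. The library labelled cerebellum Tol 2 lies at 233 CPM of markers and 82.9 CPM of Ildr2, apart from the other 5 cerebella (9.44 to 31.1 CPM of Ildr2) and from the cerebra (180 to 252 CPM of Ildr2), and its level of Tbr1, a forebrain marker, was 1.59 CPM.

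The effect of Tol on each member was then compared between organs in 1 fit of all 22 libraries, in which edgeR called 0% of 18946 genes for each of the 3 differences. At an unadjusted p under 0.05 there were 2162, 1866 and 1454 genes for cerebrum minus thymus, cerebellum minus thymus and cerebellum minus cerebrum, and DESeq2 called 123, 114 and 18. For Lsr these differences were -0.45 (SE 0.17, edgeR adjusted p = 0.30), -0.36 (SE 0.18, edgeR adjusted p = 0.530) and 0.09 (SE 0.18, edgeR adjusted p = 0.945) on the log2 scale. For Ildr1 they were 0.28, -0.29 and -0.57, with edgeR adjusted p values of 0.941, 0.916 and 0.862. For Ildr2 the differences that contain the thymus, 2.04 and 3.23, hold the values that chose it and are given without a test. Of these, cerebellum minus thymus came to 1.66 without the library labelled cerebellum Tol 2. The remaining one, cerebellum minus cerebrum, was 1.19 (SE 0.57, 95% confidence interval -0.01 to 2.39, edgeR adjusted p = 0.654). It turned to -0.39 (edgeR adjusted p = 0.915) without the library labelled cerebellum Tol 2 and came to 1.93 (edgeR adjusted p = 0.00976) without cerebellum Tol 1, which leaves that library alone, and 2593 genes were called in that last fit.

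**Figure D5:**
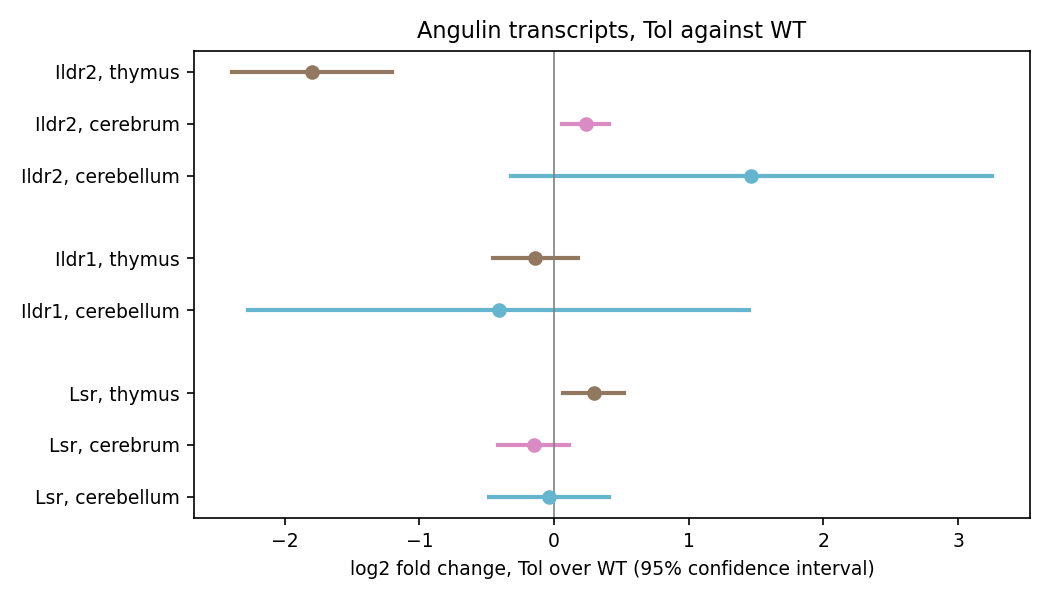
Log2 fold change of each member in Tol over WT mice, by organ, with 95% confidence intervals from edgeR; values right of the grey line at 0 are higher in Tol. Ildr2 in thymus (-1.80) is the value by which that gene was chosen and is a description, its interval in cerebellum spans -0.32 to 3.25, and Ildr1 was not tested in cerebrum.

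The other genes of these pathways are given by list, beside the members. Among 16 junction partners, 8 were higher and 3 lower in WT cerebrum than in WT thymus (median log2 fold change 1.09, against -0.06 over all genes, of which 30.2% were called higher and 29.7% lower), and 10 were higher and 2 lower in WT cerebellum (median 1.79, against 0.01, with 29.7% and 27.4%). Magi1, a scaffold protein of cell contacts, was at 120 ± 5.53 CPM in WT cerebrum and 7.98 ± 0.91 in WT thymus (SD, n = 4; log2 fold change 3.88, edgeR adjusted p = 1.11e-11). The 3 lower in cerebrum were Marveld3, F11r and Tjp3, a zonula occludens protein at 0.073 CPM in WT cerebrum and 17.4 in WT thymus (-7.80, edgeR adjusted p = 5.77e-08), and Tjp3 and F11r were the 2 lower in cerebellum. Ocln (occludin) was at 25.1 ± 3.52 CPM in WT cerebellum against 1.48 ± 0.57 in WT thymus (SD, n = 4; 4.06, edgeR adjusted p = 2.85e-09). Tricellulin itself, Marveld2, the partner that angulins recruit, averaged 1.91 CPM in WT thymus, 1.23 in WT cerebrum and 10.2 in WT cerebellum, an order that is neither that of Ildr2 nor that of Ildr1. Marveld3, F11r and Marveld2, like the other called genes of a list given without a level, are named here after their values were seen.

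Claudins are the strand-forming proteins of tight junctions. Of 13 tested, 5 were higher and 5 lower in WT cerebrum than in WT thymus (median -1.42), beside 30.2% and 29.7% of all genes. In WT cerebellum 6 were higher and 6 lower than in WT thymus (median -1.71), beside 29.7% and 27.4%. The 5 higher in cerebrum were Cldn5, the claudin of brain endothelium, Cldn10, Cldn11, Cldn12 and Cldn14, which were higher in cerebellum too, and the 5 lower were Cldn3, Cldn4, Cldn7, Cldn13 and Cldn15. Cldn11, the claudin of myelin, stood at 154 ± 28.4 CPM in WT cerebrum, 156 ± 95.5 in WT cerebellum and 0.203 ± 0.062 in WT thymus (SD, n = 4; log2 fold changes 9.51 and 9.53, edgeR adjusted p = 2.39e-09 and 2.50e-09). Cldn4, an epithelial claudin, stood at 16.2 ± 1.97 CPM in WT thymus (SD, n = 4), had 1 count in the 4 WT cerebra together and 0 in the 4 WT cerebella, at least 516-fold lower there against a floor of 3 counts over the group. Between WT cerebellum and WT cerebrum 1 claudin of 13 was higher and 1 lower, near the 8.34% and 10.2% of all genes. Cldn2, a claudin of the choroid plexus, was higher (9.06 CPM, range 0.663 to 24.8, against 0.131; log2 fold change 6.03, edgeR adjusted p = 0.00178), beside the choroid plexus markers in 2 of the WT cerebella, and its part in those libraries was not tested. Cldn23 was lower (0.0734 against 0.545 CPM; -2.82, edgeR adjusted p = 0.00152). Cldn16 was at 0 in all libraries, and Cldn18 was at 0 in the 14 brain libraries.

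The B7 family of T cell costimulators and checkpoints, to which Ildr2 has been likened, was mostly lower in brain. Of 13 genes tested, 12 were lower and 1 was higher in WT cerebrum than in WT thymus (median -4.79), beside 29.7% lower of all genes, and the same counts held for WT cerebellum (median -4.58), beside 27.4%. Cd28, the costimulatory receptor of T cells, stood at 348 ± 24 CPM in WT thymus (SD, n = 4) and at 0 in all 4 WT cerebra, at least 7800-fold lower against a floor of 3 counts over the group. Ctla4, its inhibitory counterpart, stood at 6.78 ± 0.63 CPM in WT thymus (SD, n = 4) and at 0 in all 4 WT cerebella, at least 216-fold lower. Cd276 (B7-H3) was the 1 member higher in brain, at 13.4 ± 1.99 CPM in WT cerebrum and 7.45 ± 1.54 in WT cerebellum against 2.57 ± 0.53 in WT thymus (SD, n = 4; log2 fold changes 2.34 and 1.48, edgeR adjusted p = 9.29e-08 and 7.72e-06). Ildr2 shares with Cd276 the order cerebrum, cerebellum, thymus. Between WT cerebellum and WT cerebrum, 1 B7 list gene of 13 was higher and 2 were lower, beside 8.34% and 10.2% of all genes. The higher gene was Cd28 (162 counts against 0 in the 4 libraries together, at least 37.6-fold). The lower genes were Cd86 (log2 fold change -1.47) and Ctla4, which had 0 counts against 5. The call of Ctla4 (log2 fold change -3.78) was lost without cerebrum WT 3 (-2.98, edgeR adjusted p = 0.0765). In the Tol libraries alone the calls of Ctla4 (-1.97, edgeR adjusted p = 0.197) and Cd28 (2.18, edgeR adjusted p = 0.199) were lost, with the same signs. That set holds 2 cerebella, 1 of them the library labelled cerebellum Tol 2, which lacks most of the cerebellar markers.

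Of the splicing factors bound by Ildr1 and Ildr2, Tra2b and Srsf1 were lower in WT cerebrum and in WT cerebellum than in WT thymus and none of the 3 was higher (medians -1.71 and -1.08), beside 29.7% and 27.4% of all genes called lower. Tra2b stood at 272 ± 14.8 CPM in WT thymus, 73.5 ± 4.66 in WT cerebrum and 93.2 ± 11.4 in WT cerebellum (SD, n = 4; log2 fold changes -1.92 and -1.59, edgeR adjusted p = 2.46e-10 and 1.47e-09). No splicing factor was called between the brain regions, though all 3 had an unadjusted p under 0.05, as had 56.7% of all genes. Among 10 lipoprotein receptors and ligands, the list nearest to Lsr, Vldlr, Lrp1, Lrp8 and Sort1 were higher in WT cerebrum and in WT cerebellum than in WT thymus (medians of the list 0.52 and 0.62), Lrp2 and Apob were lower in both, and Scarb1 and Lpl were lower in cerebellum. Of all genes, 30.2% were called higher and 29.7% lower in cerebrum and 29.7% and 27.4% in cerebellum. Sort1 (sortilin) stood at 768 ± 32.8 CPM in WT cerebrum and 33.1 ± 1.86 in WT thymus (SD, n = 4; 4.5, edgeR adjusted p = 1.17e-12), and Vldlr at 201 ± 35.0 in WT cerebellum and 8.36 ± 2.34 in WT thymus (SD, n = 4; 4.54, edgeR adjusted p = 1.93e-10). Apob was at 1.87 ± 0.14 CPM in WT thymus (SD, n = 4), at 0.118 in WT cerebrum (-3.94, edgeR adjusted p = 5.08e-07) and had 1 count in the 4 WT cerebella together. Between WT cerebellum and WT cerebrum, 4 junction partners were higher, Marveld2, Ocln, Cgnl1 and Tjp3 (1.68 against 0.073 CPM; 4.39, edgeR adjusted p = 0.00019), and 4 lipoprotein genes were lower, Scarb1, Sort1, Lpl and Apob, of which Apob (log2 fold change -2.94) was not called in the Tol libraries alone (-2.63, edgeR adjusted p = 0.30). These are 4 of 16 and 4 of 10, beside 8.34% higher and 10.2% lower of all genes.

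Between Tol and WT mice, no gene of the 5 pathway lists was called in any organ by edgeR. In thymus an unadjusted p under 0.05 was found for 12 of 52 tested, as had 24.4% of all genes, and the list medians lay between -0.12 (junction partners) and 0.21 (claudins) beside 0.01 over all genes. The lowest p among junction partners was that of Cxadr, an adhesion molecule and virus receptor of epithelia, at 7.63 ± 1.33 CPM in Tol and 11.1 ± 0.42 in WT thymus (SD, n = 4; log2 fold change -0.53, edgeR adjusted p = 0.071), which DESeq2 and the fits without Tol 1 or without Tol 3 called. Cldn4, at 19.8 ± 1.57 and 16.2 ± 1.97 CPM (SD, n = 4; 0.29, edgeR adjusted p = 0.115), was called only without Tol 1. Cd28 stood at 307 ± 26.4 and 348 ± 24 CPM (SD, n = 4; -0.17, edgeR adjusted p = 0.179), Lrp2, an endocytic receptor, at 0.705 ± 0.187 and 1.22 ± 0.35 (SD, n = 4; -0.78, edgeR adjusted p = 0.129), and Tra2a at 125 ± 16.5 and 138 ± 10 (SD, n = 4; -0.14, edgeR adjusted p = 0.347).

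In cerebrum 4 of 38 pathway genes had an unadjusted p under 0.05, as had 9.66% of all genes. Magi1 was at 141 ± 8.26 CPM in Tol and 120 ± 5.53 in WT cerebrum (SD, n = 4; log2 fold change 0.24, edgeR adjusted p = 0.257), the same size as that of Ildr2, and DESeq2 called it. Lrp1, a large endocytic receptor of neurons and glia, was at 663 ± 47.4 and 515 ± 68.4 CPM (SD, n = 4; 0.36, edgeR adjusted p = 0.308). Cldn10 (-0.22), Icosl (-0.64) and Tra2b (-0.14) were the lowest in p of their lists, with edgeR adjusted p values of 0.542, 0.532 and 0.519. In cerebellum 1 of 44 had an unadjusted p under 0.05, as had 3.16% of all genes: Tra2a, at 69.0 ± 4.44 CPM in Tol (SD, n = 2) and 94.0 ± 5.34 in WT (SD, n = 4; -0.44, edgeR adjusted p = 0.957). Cxadr (0.41), Cldn2 (-2.96), Cd276 (0.38) and Apoe (0.24) were the lowest in p of the other lists there, each at an edgeR adjusted p of 0.957, and Cldn2 ranged from 0.663 to 24.8 CPM within the WT group. Without the library labelled cerebellum Tol 2, Tra2a was again the 1 gene, of 46, with an unadjusted p under 0.05 (-0.53, edgeR adjusted p = 0.979), and Cxadr came to 0.15, Cldn2 to -3.09, Cd276 to 0.35 and Apoe to 0.02. Of 58 pathway genes tested for a difference of the Tol effect between organs, none was called with or without that library.

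The genes beside the members are described next, since they share a stretch of chromosome with them. Tada1, next to Ildr2, stood at 38.7 ± 2.38 CPM in WT thymus, 33.9 ± 0.24 in WT cerebrum and 35.1 ± 1.31 in WT cerebellum (SD, n = 4), and 0.00 on the log2 scale separated Tol from WT thymus (edgeR adjusted p = 0.973). Mael, on the other side, had 7 counts or fewer in every library. Cd86, a B7 ligand and the neighbour of Ildr1, was, like Ildr1, higher in WT thymus (22.4 ± 0.30 CPM) than in WT cerebrum (2.65 ± 0.44) and WT cerebellum (0.960 ± 0.316; SD, n = 4). Of all genes, 29.7% were called lower in cerebrum and 27.4% in cerebellum than in thymus. Cd86 was also called lower in WT cerebellum than in WT cerebrum (log2 fold change -1.47, edgeR adjusted p = 7.97e-05), where Ildr1 was not (0.37, edgeR adjusted p = 0.566). Slc15a2, on the other side of Ildr1, varied from 28.3 to 117 CPM within WT thymus. Usf2, which lies 967 bases from Lsr, stood at 89.0 ± 2.12, 71.9 ± 5.64 and 78.2 ± 6.5 CPM in WT thymus, cerebrum and cerebellum (SD, n = 4), lower in cerebrum by 0.34 on the log2 scale (edgeR adjusted p = 0.000652). Fam187b, 326 bases from Lsr on the other strand, stood at 0.619 ± 0.065 CPM in Tol and 0.423 ± 0.138 in WT thymus (SD, n = 4; log2 fold change 0.58, edgeR adjusted p = 0.260).

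The genes whose profile was most like each member were found by Pearson r of log2(CPM + 0.5) over the 22 libraries among 18946 genes, a measure set mainly by the organs that the libraries share. For Ildr2 these were Flrt2, Prrg3, Thrb, Sgsm2 and Syt16, with r from 0.987 to 0.989. Flrt2, a guidance and adhesion molecule, stood at 5.55, 103 and 22.1 CPM in WT thymus, cerebrum and cerebellum, and Thrb, a thyroid hormone receptor, at 4.85, 89.2 and 17.4. Within the 8 cerebra alone, r with Ildr2 was 0.88 for Flrt2, 0.38 for Prrg3, 0.75 for Thrb, -0.04 for Sgsm2 and 0.74 for Syt16, so that the likeness over all libraries did not hold for every gene within 1 organ. For Ildr1 they were Il17rb, Rab25, Ggt5, Wipf1 and Tmc6 (r from 0.984 to 0.987), all highest in thymus, among them Rab25, a small GTPase of epithelia at 1.53, 0.0718 and 0.107 CPM. For Lsr, whose TMM-scaled level varied little, the highest r was lower, from 0.688 for Mrm2 to 0.763 for Ccdc150, with Ctso, Uqcrh and Tmco1 between them. Between the members, r was -0.83 for Ildr2 and Ildr1, -0.39 for Ildr2 and Lsr and 0.28 for Ildr1 and Lsr.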

How the data were processed

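RNA of thymus, cerebrum and cerebellum was sequenced in 22 libraries of Tol and WT mice. The values are estimated counts per gene that the authors deposited as whole numbers, quantified by Salmon 0.14.1 against transcripts of GRCm38 plus that of Tol, and not normalized. The authors compared genotypes with edgeR 3.9. How transcripts were summed to genes and whether strand was set are not given in the sources used here.

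Of 34585 table entries, 34530 identifiers, the 3 members among them, matched the GENCODE vM21 annotation of GRCm38. Library totals ranged from 14543698 to 34776973. Genes were tested with edgeR 4.0.16 (R 4.3.3) by its quasi-likelihood test, with TMM scaling, the filterByExpr filter and Benjamini-Hochberg adjustment over all genes. Tol and WT were compared within each organ, the organs within the 12 WT libraries, and the effect of Tol between organs in 1 fit of the 22 libraries. Calls needed an adjusted p under 0.05, and between organs also an absolute log2 fold change over 1. CPM per kb used the union of annotated exons. The fits were tested on simulated data. Alternatives were DESeq2 1.42.0, its size factors, no filter or at least 10 counts in every library, the replicate number as a block, all libraries in 1 fit, the Tol libraries alone, and each library left out in turn. A fit of the thymus and cerebrum libraries alone was added after seeing the data. The lowest chi-square per degree of freedom between replicates of a group was 4.98, so no library was dropped as a copy. P-values set a difference between groups against the spread between these libraries, as the fitted model estimates it.

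The members and the 19 gene lists (5 of pathways, 14 of cell type markers) were chosen with earlier results of these data known. Named were the members, the genes that overlap them or lie beside them, the 5 genes most like each by Pearson r, of each pathway list the gene with the lowest p per organ and the largest call in each direction between WT organs, the most abundant marker of each list, and markers at 0.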

Additional observations from a re-analysis of the deposited data

Results flagged for a closer look

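Of 117 sets of 4 libraries checked for 1 library far from the other 3, 11 had one, where chance gives 5.85. Among the members this concerned Lsr, at 6.63 CPM in cerebrum WT 3 against 8.02 or more in the other WT cerebra. The same library had the highest thymocyte marker sum of the WT cerebra, 45.4 CPM against 10.1 or less, and the lowest sum of respiratory, gut and kidney epithelium markers, 1.69 CPM against 3.45 or more. In cerebrum Tol 4 the thymocyte sum was 26.1 CPM against 8.04 or less, and its total count was the lowest of its group at 14543698.

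Total counts were highest in thymus Tol 1 (34776973) and thymus WT 4 (29145285), each far above the others of its group. Cerebellum WT 2 stood apart in 3 sums: oligodendrocyte markers at 16499 CPM, junction partners at 697 CPM against 622 or less, and the splicing factors bound by Ildr1 and Ildr2 at 395 CPM against 471 or more. Cerebellum WT 4 was highest in the lipoprotein list, at 2256 CPM against 2221 or less, a gap that is small in itself.

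For Ildr2 the effect of Tol in cerebrum minus that in thymus was 2.04 on the log2 scale. All 4 Tol cerebra lay above all WT cerebra while all 4 Tol thymi lay below all WT thymi. No overlap between genotypes was found for 6.42% of all genes tested in cerebrum and 10.6% in thymus. In cerebrum the difference of Ildr2 did not pass the test (edgeR adjusted p = 0.380). The difference between the organs was not tested, because the thymus values chose the gene.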

How the results depend on the processing

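The direction of Ildr2 and Ildr1 between WT thymus and either brain region, of Ildr2 between the brain regions, and of Ildr1 and Lsr in Tol thymus and of Ildr2 and Lsr in Tol cerebrum was kept under all alternatives run. In the Tol libraries alone the sign turned for Lsr in cerebrum against thymus (-0.39) and cerebellum against thymus (-0.20) and for Ildr1 in cerebellum against cerebrum (-0.19). With single libraries left out, the log2 fold change of Tol against WT in cerebellum ranged from -0.16 to 2.20 for Ildr2 (negative without the library labelled cerebellum Tol 2), -0.89 to 0.07 for Ildr1 (positive without WT 2) and -0.14 to 0.05 for Lsr (positive without Tol 1 or WT 2), and in thymus from 0.25 to 0.37 for Lsr (past the threshold without Tol 1, edgeR adjusted p = 0.0306). In WT it ranged from -0.02 to 0.11 for Lsr in cerebrum against thymus (negative without thymus WT 3), and for cerebellum against cerebrum from -0.13 to 0.73 for Ildr1 and -0.01 to 0.12 for Lsr (both negative without cerebellum WT 2). The difference of the Tol effect between organs ranged from -0.73 to 0.22 for Ildr1 in cerebellum minus thymus (positive without cerebellum Tol 1 or WT 2), from 1.66 to 3.98 for Ildr2 in cerebellum minus thymus (lowest without the library labelled cerebellum Tol 2), and from -0.39 to 1.93 for Ildr2 in cerebellum minus cerebrum (negative without the library labelled cerebellum Tol 2, and past the threshold without Tol 1, edgeR adjusted p = 0.00976). The causes were not tested.

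The number of called genes was the least stable value. In thymus the 16 calls became 1267 with DESeq2, 130 without a filter, 85 with at least 10 counts in every library, 29 in the fit of all libraries, and 0 to 2978 with single libraries left out (97 without Tol 3, 7 without WT 4). In cerebrum the 0 calls became 184 with DESeq2, 25 in the fit of all libraries and 0 to 7 (2 without Tol 3, 7 without WT 3). In cerebellum they became 10 with DESeq2 and 0 to 2 (2 without Tol 1). Between WT organs, at least 10 counts in every library gave 6852, 6418 and 1815 calls for cerebrum against thymus, cerebellum against thymus and cerebellum against cerebrum, from fewer genes tested, and the Tol libraries alone gave 2146 for the last. Leaving out single libraries gave 10443 to 10680, 9945 to 10269 and 3084 to 3485. For the Tol effect between organs, where edgeR called 0 genes, DESeq2 called 123, 114 and 18 genes for cerebrum minus thymus, cerebellum minus thymus and cerebellum minus cerebrum, the added fit of thymus and cerebrum alone called 19 for the first, and leaving out single libraries gave 0 to 306 (highest without thymus Tol 1), 0 to 2454 and 0 to 2593 (both highest without cerebellum Tol 1).

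Libraries of equal number did not deviate together in every pair (thymus -0.13 to 0.06, cerebrum -0.33 to 0.36, cerebellum -0.19 and 0.65, WT libraries across organs -0.00 to 0.10), so no block was used in the reported values. Within an organ, Tol and WT libraries of equal number come from different animals. The paper's legend gives 4 Tol and 4 WT mice, and whether an equal number in 2 organs marks 1 animal is not settled by these values. The reported fits across organs treat all libraries as independent. With the replicate block edgeR called 5 genes in thymus and 0 in cerebrum and cerebellum, and 2, 0 and 1 for the 3 differences of the Tol effect. It gave Ildr2 0.24 in cerebrum (edgeR adjusted p = 0.419) and Lsr 0.30 in thymus (edgeR adjusted p = 0.219), and moved 3 values in cerebellum, Ildr2 from 1.46 to 0.49, Ildr1 from -0.41 to -0.23 and Lsr from -0.04 to -0.15, with no change in the call of a member.

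Scaled by library total, Ildr2 in WT cerebrum came to 21.7 CPM per kb and Lsr to 3.09. In WT thymus Ildr1 came to 1.56 and Lsr to 4.0. With that scaling Lsr in WT cerebrum lay below WT thymus without overlap (5.62 to 7.23 against 7.78 to 9.45 CPM), where TMM scaling gave overlap. With the longest transcript as length, Ildr1 in WT thymus came to 1.85. Of the 5 genes most like Ildr2, 1 remained with Spearman's rho, 3 with a pseudocount of 0.1 and 2 with one of 2, and of those of Ildr1, 1 remained with rho and 3 with 0.1. Of the other genes named, 607 of 616 values under an alternative kept direction and side of the threshold. The lowest counts behind a member were those of Ildr1 in brain (5 to 30 per library) and of Ildr2 in Tol thymus (14 to 34), and the parts of depth and of spread between libraries were not told apart.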

Other observations

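Within the brain, macrophage and microglia markers, led by Csf1r, were lower in WT cerebellum than in WT cerebrum in 7 of 7 genes, all called, where 10.2% of all genes were called lower, with a median log2 fold change of -1.77 beside 0.03 over all genes. Endothelial markers, which include the barrier claudin Cldn5, did not share this: 0 of 8 were called, and their median was 0.03. Of them 1 had an unadjusted p under 0.05, beside 56.7% of all genes. The summed endothelial level was between 263 and 322 CPM in WT cerebrum and between 258 and 334 in WT cerebellum. Against WT thymus, where it was between 161 and 173 CPM, 6 of 8 endothelial markers were higher in each brain region (medians 2.16 and 2.04, beside 30.2% and 29.7% of all genes called higher). In each comparison 1 of 8 was lower, beside 29.7% and 27.4% of all genes. This was Pecam1, at 124 CPM in WT thymus, 27.7 in WT cerebrum and 28.7 in WT cerebellum. Lsr did not pass the test in either comparison.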
